A study of Mus musculus with 10 samples.

Results

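The genes examined here encode bone morphogenetic protein (BMP) ligands and their antagonists, together with an activin subunit and a BMP target. They were taken by gene name, 10 of the 22548 genes in the deposited table. They comprised the ligands Bmp2, Bmp3, Bmp4, Bmp6 and Bmp7, the secreted antagonists Grem1, Nog and Chrd, the activin subunit gene Inhba and the target gene Id1. RNA-seq was performed on osteocytes, the cells embedded in bone matrix, from C57BL/6 male mice labelled as aged 8 weeks. Whether this age was at injection or at harvest, which came weeks apart in the study, was not determined. The 5 MM mice had received an injection of Vk12598 cells, a murine myeloma line, into the femur, and the 5 No MM mice had received no myeloma cells. The study's methods name PBS as the control injection of its myeloma model. The labels give no further agent or engineered allele for either group, and a single myeloma line stands for the disease. Each mouse gave 1 library, prepared from cells released by repeated collagenase and EDTA digestion of bone pieces. The comparison addressed which transcripts differ in osteocytes of myeloma-bearing bone.

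BMPs are secreted dimers that bind type I and type II serine/threonine kinase receptors, which phosphorylate Smad1, Smad5 and Smad9 to switch on target genes such as Id1. They drive mesenchymal cells toward the osteoblast lineage. Gremlin 1, Noggin and Chordin, the products of Grem1, Nog and Chrd, bind BMPs outside the cell and keep them from their receptors. Activin A, a dimer of Inhba products, signals through Smad2 and Smad3 and promotes osteoclast formation.

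Between 31099174 and 39466332 reads were counted on genes per library. At that depth 3 reads, taken as the smallest detectable number, corresponded to 0.0709 to 0.114 CPM (read counts relative to library size after scaling by TMM, edgeR's trimmed mean method). All 12 osteocyte markers and all 11 osteoblast markers of the lists used had reads in every library. Markers of blood and marrow cells were present as well. The 8 neutrophil markers summed to between 6963 and 32230 CPM, and the 7 erythroid markers to between 791 and 50406 CPM. Of the control libraries, those labelled No MM 3 and No MM 4 stood apart. Immunoglobulin genes took 26.8% and 29.3% of their reads, against 0.648% to 3.98% in the other 8 libraries. Their summed plasma cell markers (6 of 7 listed were in the table) were 3711 and 3541 CPM, against 333 to 631 CPM elsewhere, and all 6 had an unadjusted p below 0.05 for a lower level in MM. Their summed osteoblast markers were 4222 and 2959 CPM, against 14616 to 51730 CPM elsewhere. Every other marker list used also had a lower mean sum in this pair than in No MM 1, No MM 2 and No MM 5. The means were 931 against 9290 CPM for osteoclast markers and 1768 against 28353 CPM for erythroid markers. They were 7549 against 28067 CPM for neutrophil markers and 479 against 1989 CPM for reticular stroma markers. Whether these 2 libraries match their labels was not tested, and each value of MM over No MM includes them unless stated. Fold changes of the BMP ligand, antagonist, activin and target genes examined here are therefore given with and without these libraries. For the marker lists, the direction, median and p-values of fold changes are given only with them. The same holds for the direction and median of the pathway list and its roles, and for most single pathway genes. How far those values rest on these libraries is not shown. In such bulk samples, fewer cells of a type and less RNA per cell cannot be told apart.

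All 10 BMP genes were detected in every library and passed the filter on low counts, with between 15 reads (Nog in No MM 4) and 2603 reads (Bmp3 in MM 6). As RPKM, that is CPM per kilobase of gene length, Id1 had the highest median level over the 10 libraries at 20.3 RPKM. Bmp3 followed at 10.2, Bmp6 at 6.21 and Bmp4 at 5.45 RPKM. Bmp2, Grem1 and Bmp7 formed a middle group at 2.55, 2.25 and 2.22 RPKM. Inhba, Nog and Chrd were the lowest at 0.968, 0.853 and 0.570 RPKM. Each gene was compared with the next one in this order by an exact sign-flip permutation test over the 10 libraries, two-sided and adjusted over 9 pairs. Only the steps from Id1 to Bmp3 and from Bmp4 to Bmp2 exceeded the spread between mice, each seen in 9 of 10 libraries (exact test, adjusted p = 0.0176 for both). The other neighbors had adjusted p-values between 0.123 and 0.932 in the same exact test. The lengths are those of the deposited table, so this order depends on its gene models.

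The 5' flanks of Grem1, the gene with the largest difference between the groups, of Bmp4, a ligand whose level went with the bone-cell markers, and of Inhba, the gene with the lowest correlation with them over the 10 libraries, are shown for orientation. They were chosen after the values had been seen. The RefSeq promoter table (GRCm38.p6) held 5 of the 10 genes, and the 250 bases before the start of transcription are printed 5' to 3' on the strand of the gene. Capitals mark, on either strand, a GC-rich Smad element (GGCGCC, present in 9.59% of 32851 such flanks), a Smad-binding element (CAGAC, 42.2%) or a GC box (GGGCGG, 32.7%).
Grem1 (chr2:113758649-113758898, minus strand): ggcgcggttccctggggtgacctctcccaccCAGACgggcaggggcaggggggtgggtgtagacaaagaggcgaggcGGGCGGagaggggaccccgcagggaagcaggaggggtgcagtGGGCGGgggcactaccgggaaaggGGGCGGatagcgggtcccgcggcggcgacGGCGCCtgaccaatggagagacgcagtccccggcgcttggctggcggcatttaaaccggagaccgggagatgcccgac
Bmp4 (chr14:46390670-46390919, minus strand): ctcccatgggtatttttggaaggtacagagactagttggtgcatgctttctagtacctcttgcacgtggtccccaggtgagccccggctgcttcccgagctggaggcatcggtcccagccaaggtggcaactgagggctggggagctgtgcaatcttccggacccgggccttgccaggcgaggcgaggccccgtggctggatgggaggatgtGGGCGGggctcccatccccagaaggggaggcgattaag
Inhba (chr13:16011601-16011850, plus strand): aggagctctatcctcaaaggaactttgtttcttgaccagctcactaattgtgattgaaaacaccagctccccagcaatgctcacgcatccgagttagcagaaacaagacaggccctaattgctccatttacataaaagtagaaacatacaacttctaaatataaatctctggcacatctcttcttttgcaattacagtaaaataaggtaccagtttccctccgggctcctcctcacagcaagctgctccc

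The Grem1 flank held 1 GC-rich Smad element, 1 Smad-binding element and 3 GC boxes, and 72.0% of its bases were G or C, against a median of 52.4% for all flanks in the table. The Bmp4 flank held 1 GC box, with 63.2% G or C. The Inhba flank held none of these motifs, with 43.2% G or C. Of the flanks not shown, that of Chrd also held 1 GC-rich Smad element, with 4 GC boxes and 78.0% G or C. That of Bmp6 held 1 Smad-binding element and 1 GC box, with 68.8% G or C. These are matches of letters in a short window, and no binding was measured.

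None of the 10 genes had an adjusted p-value below 0.05 in edgeR's quasi-likelihood test of MM against No MM, and no gene of the 16186 tested did (0%, smallest adjusted p = 0.315). By DESeq2, 32 genes were higher and 192 lower in MM, with none of the 10 among them. At an unadjusted p below 0.05, edgeR found 1 of the 10 genes, Grem1, against 2281 of all tested genes (14.1%), of which 617 (3.81%) were higher and 1664 (10.3%) lower in MM. Estimates were above 0 for 7 of the 10 and below 0 for 3, with a median log2 fold change of 0.19, against -0.03 for all tested genes. The groups overlapped for each of the 10 genes, whereas 228 of all tested genes (1.41%) had groups that did not overlap. A p-value that misses the threshold does not show that levels were equal.

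**Figure D1:**
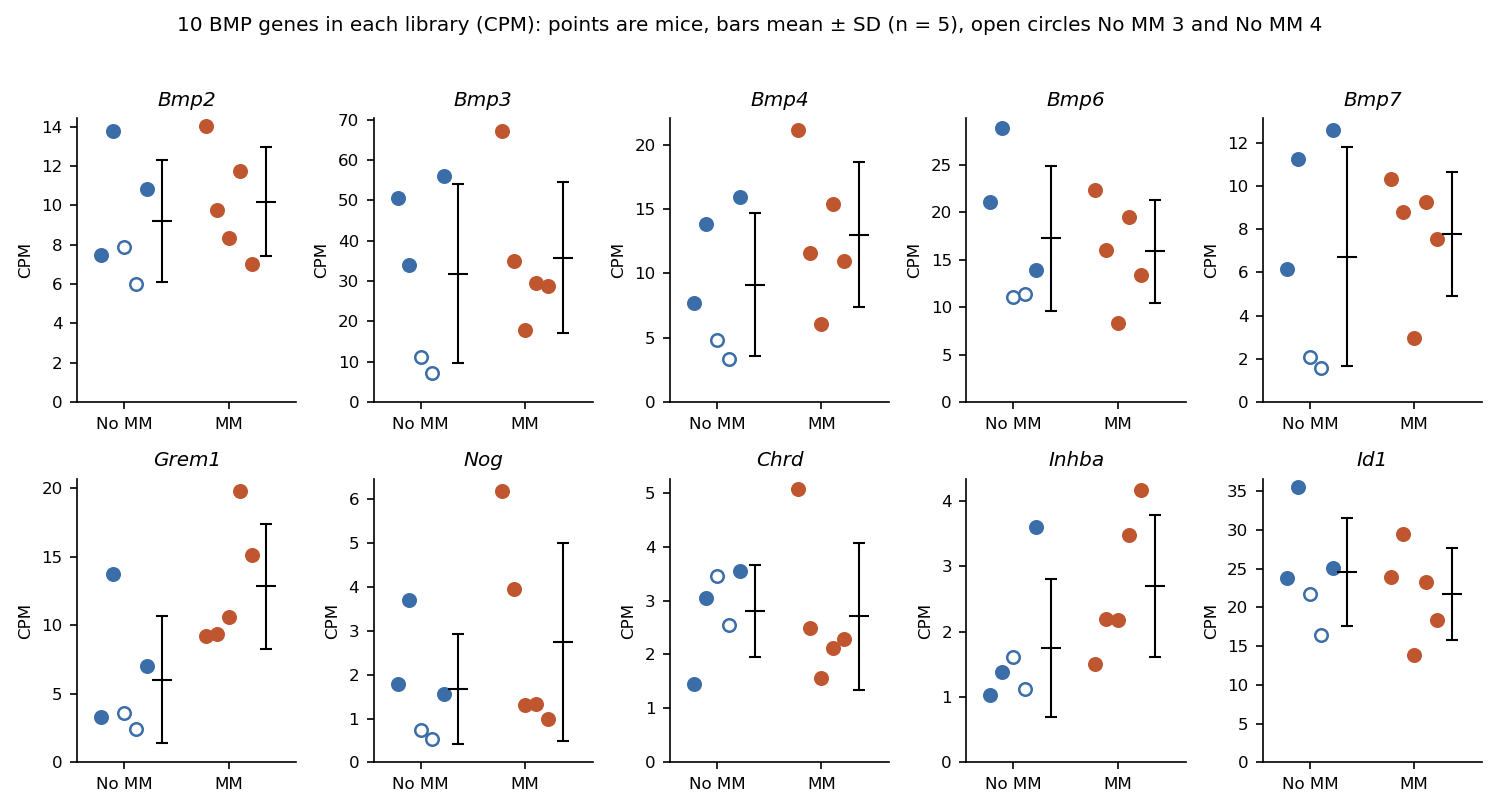
Level of each of the 10 BMP genes in CPM on a linear axis that starts at 0. Each point is 1 mouse, open circles mark No MM 3 and No MM 4, and bars give the mean ± SD of 5 mice. All 5 MM points of Grem1 lie at or above 9.24 CPM, and No MM 2 is the only No MM point among them.

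Among the ligands, Bmp2, which promotes osteoblast differentiation and fracture repair, varied least over the libraries, with a 2.34-fold range. It stood at 7.50, 13.8, 7.88, 5.99 and 10.9 CPM in No MM mice 1 to 5 and at 14.0, 9.78, 8.34, 11.7 and 7.03 CPM in MM mice 6 to 10. The highest and the lowest mouse of each group covered nearly the same range. The means were 9.20 ± 3.11 CPM in No MM and 10.2 ± 2.77 CPM in MM (SD, n = 5 each), a log2 fold change of 0.14 (standard error 0.285, adjusted p = 0.838 by edgeR), and -0.09 without No MM 3 and No MM 4.

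Bmp3 encodes a BMP that dampens the activity of the osteogenic BMPs and is made by osteoblasts and osteocytes. Its levels were 50.5, 34.0, 11.3, 7.33 and 56.1 CPM in No MM and 67.3, 35.1, 18.0, 29.6 and 28.9 CPM in MM. No MM 3 and No MM 4 were the lowest of the 10 libraries and MM 6 was the highest, so that the highest library exceeded the lowest by 9.19-fold. Its log2 fold change, MM over No MM, came to 0.17 (standard error 0.545, adjusted p = 0.906 by edgeR). Without No MM 3 and No MM 4 it was -0.41 (standard error 0.381, adjusted p = 0.714).

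Bmp4, another osteogenic ligand, measured 7.69, 13.9, 4.85, 3.34 and 15.9 CPM in No MM and 21.1, 11.5, 6.05, 15.4 and 11.0 CPM in MM. The same 2 No MM libraries were again the lowest and MM 6 the highest, with broad overlap between the groups. For Bmp4 the log2 fold change came to 0.51 (standard error 0.460, adjusted p = 0.623 by edgeR), and 0.05 without those 2 libraries.

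Bmp6, which in the liver also signals iron load to hepcidin, was 21.1, 28.9, 11.1, 11.4 and 13.9 CPM in No MM and 22.3, 16.0, 8.32, 19.5 and 13.4 CPM in MM. No MM 2 was the highest and MM 8 the lowest, and the log2 fold change came to -0.12 (standard error 0.337, adjusted p = 0.893 by edgeR). Without No MM 3 and No MM 4 it came to -0.44 (standard error 0.338, adjusted p = 0.671). In GENCODE M21 an exon of Bmp6 overlaps one of Txndc5 on the opposite strand. Txndc5, which encodes a protein disulfide isomerase of secretory cells, averaged 2031 CPM in No MM 3 and No MM 4 and 237 CPM in the other libraries. Chrd overlaps Thpo in the same way, and Thpo averaged 4.27 CPM in those 2 libraries against 0.430 CPM elsewhere. Whether strand was used in counting is not given in the sources used here, and the part of these overlaps in the values was not tested.

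Bmp7, known for its role in kidney and skeletal development, reached 6.17, 11.2, 2.07, 1.60 and 12.6 CPM in No MM and 10.3, 8.78, 2.95, 9.26 and 7.55 CPM in MM. No MM 3 and No MM 4 were lowest once more, and the other 3 No MM mice spanned the MM values above MM 8. For Bmp7 the log2 fold change came to 0.21 (standard error 0.573, adjusted p = 0.889 by edgeR), and -0.38 without those 2 libraries.

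Of the antagonists, Grem1 showed the largest difference of the 10 genes. It stood at 3.31, 13.7, 3.62, 2.47 and 7.06 CPM in No MM mice 1 to 5, from 87, 488, 112, 68 and 288 reads. It stood at 9.24, 9.41, 10.6, 19.8 and 15.2 CPM in MM mice 6 to 10, from 357, 348, 450, 718 and 583 reads. All 5 MM mice lay above 4 of the 5 No MM mice, and No MM 2 lay within the MM range. The mean was 6.04 ± 4.65 CPM in No MM and 12.8 ± 4.57 CPM in MM (SD, n = 5 each), with a log2 fold change of 1.09 (standard error 0.470, unadjusted p = 0.0411, adjusted p = 0.340 by edgeR). An exact permutation test of the single value over all ways to assign the mice to the groups gave p = 0.0397, two-sided, where 0.00794 is the smallest p it can give.

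The difference in Grem1 was in the same direction in all 19 other fits, from 0.66 to 1.63 on the log2 scale, with adjusted p-values between 0.196 and 0.658. It was 0.66 without No MM 3 and No MM 4 (standard error 0.446, adjusted p = 0.650 by edgeR), and the exact permutation p over the 8 remaining mice was 0.143. It was 1.10 (standard error 0.414, unadjusted p = 0.0242, adjusted p = 0.382) with the mean level of the osteocyte and osteoblast markers as a covariate. With 1 surrogate variable as a covariate it was 0.77 (standard error 0.434, unadjusted p = 0.104, adjusted p = 0.520), no longer past the unadjusted threshold. Without No MM 2 it was 1.63 (unadjusted p = 0.00183, adjusted p = 0.196). The unadjusted p was above 0.05 when No MM 1, No MM 3, No MM 4, No MM 5, MM 9 or MM 10 was left out alone, from 0.0551 to 0.106.

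Markers of stromal cells were looked at beside Grem1, since gremlin 1 is also made by marrow stroma. The 8 reticular stroma markers summed to 1319, 2680, 423, 536 and 1966 CPM in No MM mice 1 to 5. In MM mice 6 to 10 the sums were 2005, 1478, 1259, 2704 and 2125 CPM. The highest sums were those of MM 9 and No MM 2, which were also the highest mice of their groups for Grem1. MM 8 had the lowest MM sum but more Grem1 than MM 6 and MM 7. MM 9 and No MM 2 were also the highest of their groups for megakaryocyte markers (1832 and 1156 CPM). The same held for B cell markers (459 and 370 CPM), so the match was not particular to stroma. With all 10 libraries, the 8 reticular stroma markers had estimates above 0, with a median log2 fold change of 0.45 and none at an unadjusted p below 0.05. All 6 megakaryocyte markers were above 0 too, with a median of 0.69, as were all 8 neutrophil markers, with 0.19. The 9 periosteal and tendon fibroblast markers summed to between 285 and 899 CPM in No MM and between 383 and 1024 CPM in MM, with 5 of 9 above 0. All of them had reads in every library, and their part in the Grem1 values was not tested.

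Nog was the most variable of the 10 genes, with an 11.4-fold range over the libraries. It measured 1.79, 3.72, 0.743, 0.544 and 1.57 CPM in No MM and 6.18, 3.95, 1.30, 1.32 and 0.989 CPM in MM. MM 6 and MM 7 were high, while MM 8, MM 9 and MM 10 lay below the No MM median. For Nog the log2 fold change came to 0.71 (standard error 0.648, adjusted p = 0.626 by edgeR), and 0.20 without No MM 3 and No MM 4.

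Chrd was 1.45, 3.04, 3.46, 2.54 and 3.55 CPM in No MM and 5.07, 2.49, 1.56, 2.12 and 2.29 CPM in MM. Only MM 6 lay above the No MM median. On the log2 scale MM differed from No MM by -0.05 (standard error 0.379, adjusted p = 0.959 by edgeR), and without No MM 3 and No MM 4 by -0.00055. Chrd was also the only one of the 10 genes that was not lower on average in No MM 3 and No MM 4 than in the other No MM mice.

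Inhba was 1.03, 1.38, 1.62, 1.13 and 3.60 CPM in No MM and 1.50, 2.19, 2.17, 3.47 and 4.16 CPM in MM. All 5 MM mice lay above the No MM median, but No MM 5 exceeded 4 of them. MM was above No MM by 0.62 on the log2 scale (standard error 0.429, adjusted p = 0.511 by edgeR). Without No MM 5 it was 1.07 (standard error 0.370, unadjusted p = 0.0166, adjusted p = 0.139). It was 0.41 both without No MM 3 and No MM 4 (unadjusted p = 0.424, adjusted p = 0.761) and without MM 10 (unadjusted p = 0.385, adjusted p = 0.771).

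Id1, the transcriptional readout of BMP signaling among the 10, was 23.8, 35.5, 21.8, 16.4 and 25.1 CPM in No MM and 23.9, 29.4, 13.8, 23.3 and 18.3 CPM in MM. The groups covered similar ranges, with No MM 2 highest and MM 8 lowest. On the log2 scale the difference was -0.17 (standard error 0.249, adjusted p = 0.771 by edgeR), and -0.39 without No MM 3 and No MM 4.

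**Figure D2:**
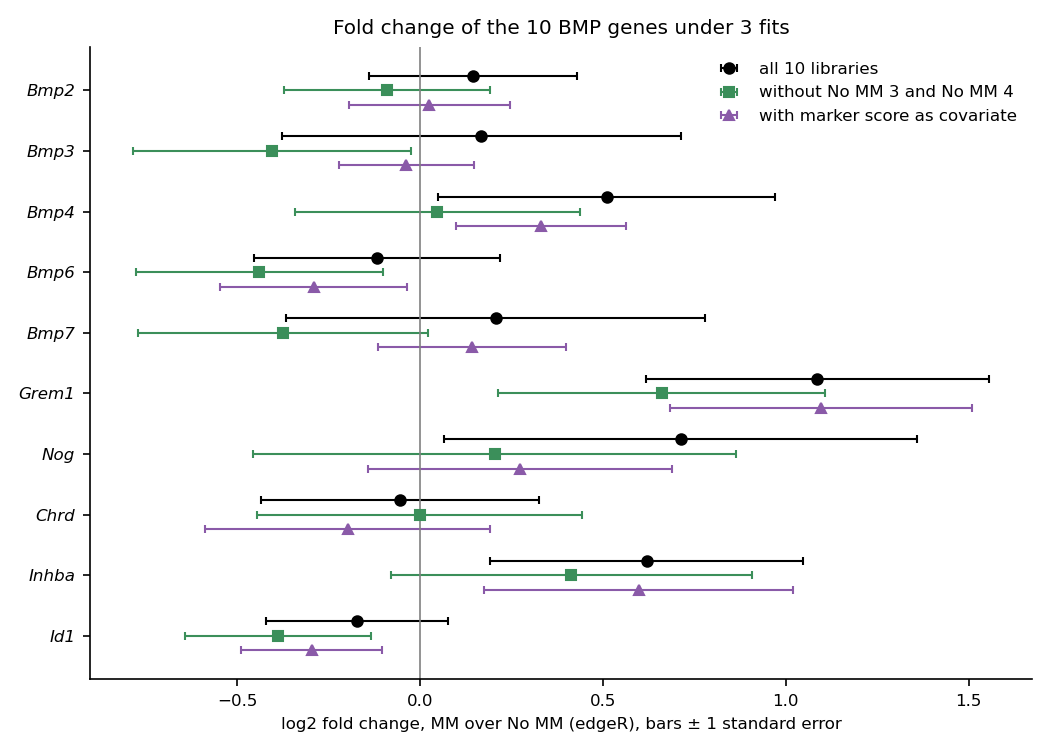
Log2 fold change of each gene, MM over No MM, from edgeR with all 10 libraries (circles), without No MM 3 and No MM 4 (squares) and with the osteocyte and osteoblast marker score as a covariate (triangles). Bars are ± 1 standard error. Grem1 stays above 0 in all 3 fits, at 1.09, 0.66 and 1.10, and Bmp3 lies below 0 in the latter pair, at -0.41 and -0.04.

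Without No MM 3 and No MM 4, 4 of the 10 estimates were above 0 and 6 below 0. None had an unadjusted p below 0.05 in that fit, where 5.89% of all tested genes did. The 5 genes that changed sign in at least 1 of the alternatives were Bmp2, Bmp3, Bmp6, Bmp7 and Chrd. Bmp4, Grem1, Nog, Inhba and Id1 kept their sign in all of them.

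The balance of antagonists and ligands was described as a ratio of summed RPKM within each library, which does not depend on how libraries are scaled. It was computed after the values of the single genes had been seen, along with 9 other forms and a further 3 ratios, so it carries no test. With all 5 ligands in the sum, Grem1, Nog and Chrd together amounted to 0.0672, 0.169, 0.157, 0.138 and 0.0904 of the ligands in No MM and to 0.147, 0.180, 0.241, 0.195 and 0.197 in MM. Of the MM mice, 4 lay above every No MM mouse. Without Bmp3, which dampens rather than activates signaling, the ratio was 0.134, 0.242, 0.215, 0.177 and 0.172 in No MM and 0.268, 0.297, 0.386, 0.282 and 0.320 in MM. The groups then did not overlap, and No MM 3 and No MM 4 lay inside the No MM range. They also did not overlap when Chrd was left out as well, whereas the other 8 forms overlapped, among them the one without Nog, in which 3 of 5 MM mice lay above every No MM mouse.

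Grem1 alone over these 4 ligands had a median of 0.0852 among No MM mice and of 0.223 among MM mice. Nog and Chrd without Grem1 had medians of 0.106 and 0.118, with MM 9 and MM 10 below and MM 6 and MM 7 above the No MM range. The antagonist that was high relative to these ligands differed between MM mice. For Grem1 the ratio was highest in MM 8 (0.269), MM 10 (0.246) and MM 9 (0.223). MM 6 (0.0848) lay inside the No MM range of 0.0491 to 0.129, and MM 7 (0.130) just above it. Grem1 made up between 36.6% and 53.5% of the antagonist sum in No MM and between 31.7% and 79.1% in MM. With reads in place of RPKM, 4 of 5 MM mice lay above every No MM mouse. A wider form summed 12 antagonists over 17 ligands, taken from the 10 genes and the pathway list described below. The groups overlapped in it, with medians of 1.26 for No MM and 1.14 for MM. It did not hold all 18 other antagonists and modulators of that list. Sost, at a mean of 146 RPKM, was not in the sum.

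**Figure D3:**
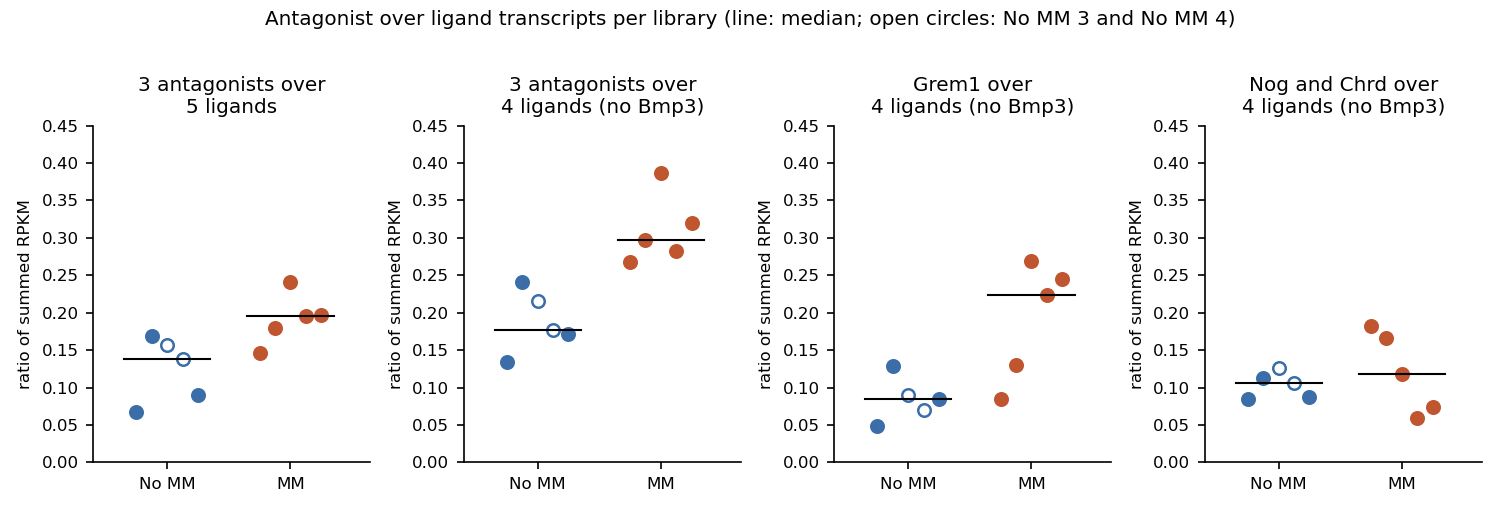
Ratio of summed antagonist to summed ligand RPKM in each library, on a linear axis from 0, for 4 choices of the genes summed. Points are mice, open circles mark No MM 3 and No MM 4, and lines are medians. With Bmp3 left out of the ligands the 5 MM points, from 0.268 to 0.386, lie above the 5 No MM points, from 0.134 to 0.242, and with Bmp3 the groups overlap.

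Each of the 10 genes was set against the level of bone-cell markers in the preparation. The bone-cell marker score was the mean log2 CPM of the osteocyte and osteoblast lists, which hold none of the 10 genes. Over the 10 libraries, Pearson's r of log2 CPM with the score was 0.968 for Bmp3 (Spearman's rho 0.939, permutation test, p = 3e-05, adjusted over 10 genes p = 0.0003). It was 0.949 for Bmp7 (rho 0.879, permutation p = 0.00014, adjusted p = 0.0007) and 0.914 for Bmp4 (rho 0.867, permutation p = 0.00034, adjusted p = 0.00113). Nog followed with 0.841 (rho 0.879, permutation p = 0.00276, adjusted p = 0.0069) and Bmp2 with 0.747 (rho 0.709, permutation p = 0.0132, adjusted p = 0.0264). These libraries include the low pair No MM 3 and No MM 4, which are also the 2 farthest from the median score. That pair was low in osteoclast, erythroid, neutrophil and reticular stroma markers too, so r over 10 libraries is not particular to bone cells.

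Without that pair, r was 0.893 for Bmp3, 0.822 for Bmp7 and 0.823 for Chrd (n = 8, permutation test, adjusted p = 0.0422 for each). It was 0.757 for Bmp4, 0.733 for Id1, 0.717 for Nog, 0.639 for Bmp6 and 0.622 for Bmp2, with adjusted permutation p-values from 0.0763 to 0.128. By Pearson's r the relation passed the test in neither set of libraries for Bmp6, Id1, Grem1 and Inhba. By Spearman's rho over 10 libraries it did pass for Id1 (rho 0.806, permutation test, adjusted p = 0.0142). It also passed for Bmp6 by rho (0.733, permutation test, adjusted p = 0.0339). Over 10 libraries r was 0.680 for Bmp6 and 0.640 for Id1 (permutation test, adjusted p = 0.0532 and 0.0639), and 0.263 for Chrd (adjusted p = 0.514). For Grem1 and Inhba r was 0.517 and 0.231 over 10 libraries (permutation test, adjusted p = 0.158 and 0.514) and -0.288 and -0.281 over 8 (adjusted p = 0.496 for both). The difference between the correlations of different genes was not tested.

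**Figure D4:**
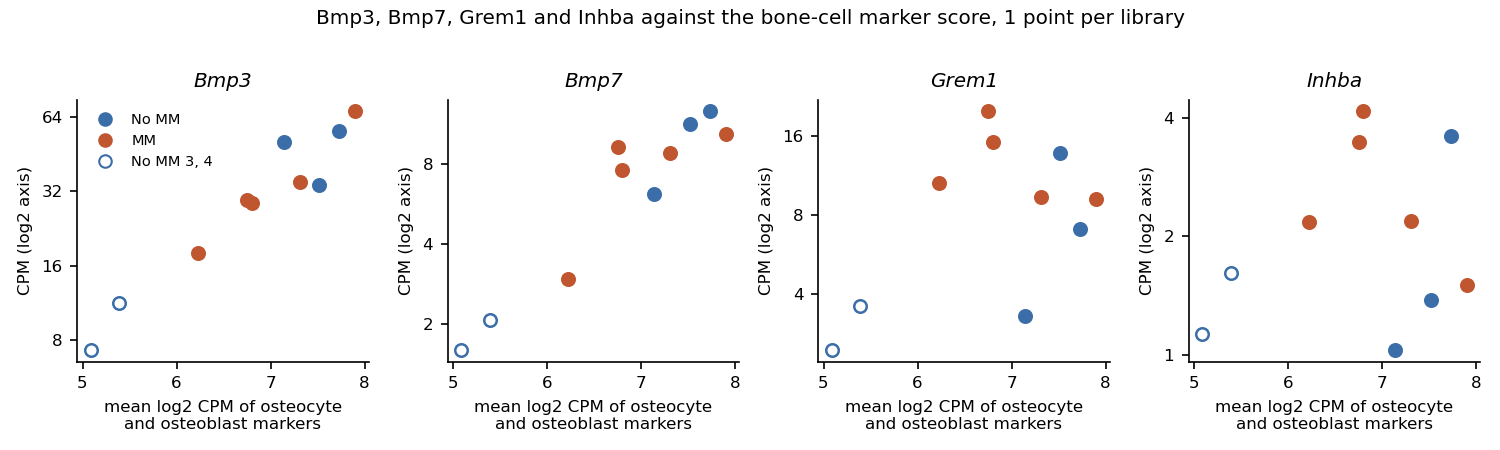
Level of Bmp3, Bmp7, Grem1 and Inhba in CPM (log2 axis) against the mean log2 CPM of osteocyte and osteoblast markers, with 1 point per library. For Bmp3 and Bmp7, r was 0.968 and 0.949 over 10 libraries, and 0.893 and 0.822 over the 8 without the open circles. For Grem1, r was 0.517 over 10 libraries and -0.288 over those 8, which include No MM and MM mice. The MM points of Grem1 lie at 9.24 to 19.8 CPM.

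Relative to No MM 1, No MM 2 and No MM 5, the mean level in No MM 3 and No MM 4 was lower by 5.45-fold for Bmp7, 5.03-fold for Bmp3, 3.66-fold for Nog and 3.05-fold for Bmp4. The factor was 2.64 for Grem1, 1.90 for Bmp6, 1.55 for Bmp2, 1.47 for Id1, 1.46 for Inhba and 0.894 for Chrd. The summed osteoblast markers differed by 10.6-fold and the summed osteocyte markers by 3.0-fold between the same libraries. No MM 4 was the lowest of all libraries for 6 of the 10 genes, and MM 6 the highest for 5. MM 6 also had the highest summed osteoblast markers, at 51730 CPM. The part of cell composition in these values was not tested further than by the covariate above.

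With each gene set against the summed osteoblast markers of its own library, as a description, Grem1 had medians of 0.518 CPM (No MM) and 0.509 CPM (MM) per 1000 CPM of those markers. Inhba had 0.0795 and 0.140 CPM on the same basis, Bmp6 1.09 and 0.569 CPM, and Id1 1.34 and 0.944 CPM. The ranges of the groups overlapped for each of these 4 genes. On this basis No MM 3 and No MM 4, with few osteoblast transcripts, were the highest No MM libraries for Grem1.

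Among the 45 pairs of the 10 genes, r over 10 libraries was above 0 in 42 and above 0 in 36 over the 8 libraries without No MM 3 and No MM 4. By Pearson's r, an adjusted permutation p below 0.05 was found for 5 pairs over 10 libraries and for 0 pairs over 8. By Spearman's rho it was found for 10 pairs over 10 libraries. Bmp4 and Bmp7 were the closest pair over 10 libraries, with r = 0.955 (rho 0.939, permutation p = 6e-05, adjusted over 45 pairs p = 0.0027). Over 8 libraries their r was 0.883 (permutation, adjusted p = 0.0792), and Bmp4 with Chrd was closer at 0.893 (permutation, adjusted p = 0.0814). For Bmp3 with Bmp7, r was 0.904 over 10 libraries and 0.676 over 8, and Bmp6 with Id1 had 0.821 over 10 libraries.

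For each gene, the transcripts with the most similar pattern of log2 CPM were listed as a description, over libraries that share the same depths and tissue. Over 10 libraries, Bmp3 was closest to B4galnt3 and Efs (r = 0.991 and 0.989), Bmp7 to Pcdh7 and Sema5a (0.989 and 0.974) and Bmp4 to Triqk and Rnf14 (0.979 and 0.970). Nog was closest to Irx3 and Arnt2 (0.985 and 0.973), Bmp2 to Abi3bp and Spry1 (0.959 and 0.954) and Bmp6 to Gpd1 and Map3k7cl (0.972 and 0.969). Grem1 was closest to P2ry12 and Gpm6b (0.966 and 0.962), Inhba to Pram1 and Adam8 (0.954 and 0.953) and Chrd to Rab12 and Mocs2 (0.972 and 0.948). Id1 was closest to Sost, the gene of the osteocyte protein sclerostin, and to Mal (0.936 and 0.929).

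Over the 8 libraries without No MM 3 and No MM 4, only Abi3bp for Bmp2 and Irx3 for Nog were again among the closest pair. Bmp6 was then closest to Tnmd, a tendon gene, and Snrpn (0.995 and 0.982), Bmp7 to Lgr6 and Efna3 (0.996 and 0.978), and Inhba to Cd33, a myeloid surface marker, and Svil (0.992 and 0.986). Nog was closest to Itga1 and Irx3 (0.984 and 0.979). Grem1 was closest to Sntb1 and Fry (0.978 and 0.968), and Chrd to Pygo1 and Socs5 (0.990 and 0.989). Bmp2 was closest to Rab6b and Abi3bp (0.963 and 0.954), Bmp3 to Spns2 and Ajuba (0.991 and 0.989), Bmp4 to Mcc and Mfi2 (0.986 and 0.983) and Id1 to Tg and Ndrg1 (0.971 and 0.968).

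The rest of the pathway was described with a list of 74 gene names, of which 69 were in the table (Hjv and Hfe2 name 1 gene) and 60 were tested. Estimates were above 0 for 37 and below 0 for 23, with a median log2 fold change of 0.11. Of all tested genes, 47.3% were above 0, with a median of -0.03. None of the 60 had an adjusted p below 0.05. At an unadjusted p below 0.05 by edgeR, 1 of the 60 was higher and 1 lower in MM, both among the Smad1/5 target genes. At that threshold 3.81% of all tested genes were higher and 10.3% lower.

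Gata2, a transcription factor of blood progenitors, was 14.9, 19.1, 6.95, 9.94 and 15.0 CPM in No MM and 15.0, 32.7, 15.4, 27.9 and 19.9 CPM in MM. MM exceeded No MM by 0.75 on the log2 scale (standard error 0.316, unadjusted p = 0.0373, adjusted p = 0.334 by edgeR), and 0.42 (unadjusted p = 0.179) without No MM 3 and No MM 4. Atoh8, a helix-loop-helix transcription factor, was 54.3 CPM in both No MM 3 and No MM 4 and between 2.41 and 6.70 CPM in the other 8 libraries. MM was below No MM, at -2.51 on the log2 scale (standard error 0.796, unadjusted p = 0.00925, adjusted p = 0.315 by edgeR), and -0.26 (unadjusted p = 0.528) without that pair.

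By role, 7 of the 10 tested other BMP and GDF ligands had estimates above 0 and none passed the unadjusted threshold. Their most abundant members per length were Gdf10, at a log2 fold change of -0.02 (standard error 0.560), and Gdf3, at 0.46 (standard error 0.622). Of the 15 other extracellular antagonists and modulators, 7 were above and 8 below 0. They were led by Sost, at -0.40 (standard error 0.700), and Bmp1, a protease that cleaves Chordin, at -0.17 (standard error 0.558). Inhbb and Inha, further subunits of activin and inhibin, were at -0.15 and 0.53.

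The 8 tested receptors had a median of 0.05, with 5 above 0, and the most abundant ones, Acvrl1 and Bmpr1a, were at -0.02 and 0.11. Of the 6 co-receptors and decoy receptors, 2 were above 0, and Eng and Bambi were at -0.21 and 0.06. Of the 8 Smads and Smad ubiquitin ligases, 7 were above 0, while Smad4, the common partner Smad, was at -0.32 (standard error 0.197, adjusted p = 0.466) and Smad5 at 0.11. Among the 10 tested Smad1/5 targets other than Id1, 7 were above 0. The most abundant were Id3, at -0.17 (standard error 0.484), and Id2, at 0.32 (standard error 0.197, adjusted p = 0.468).

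**Figure D5:**
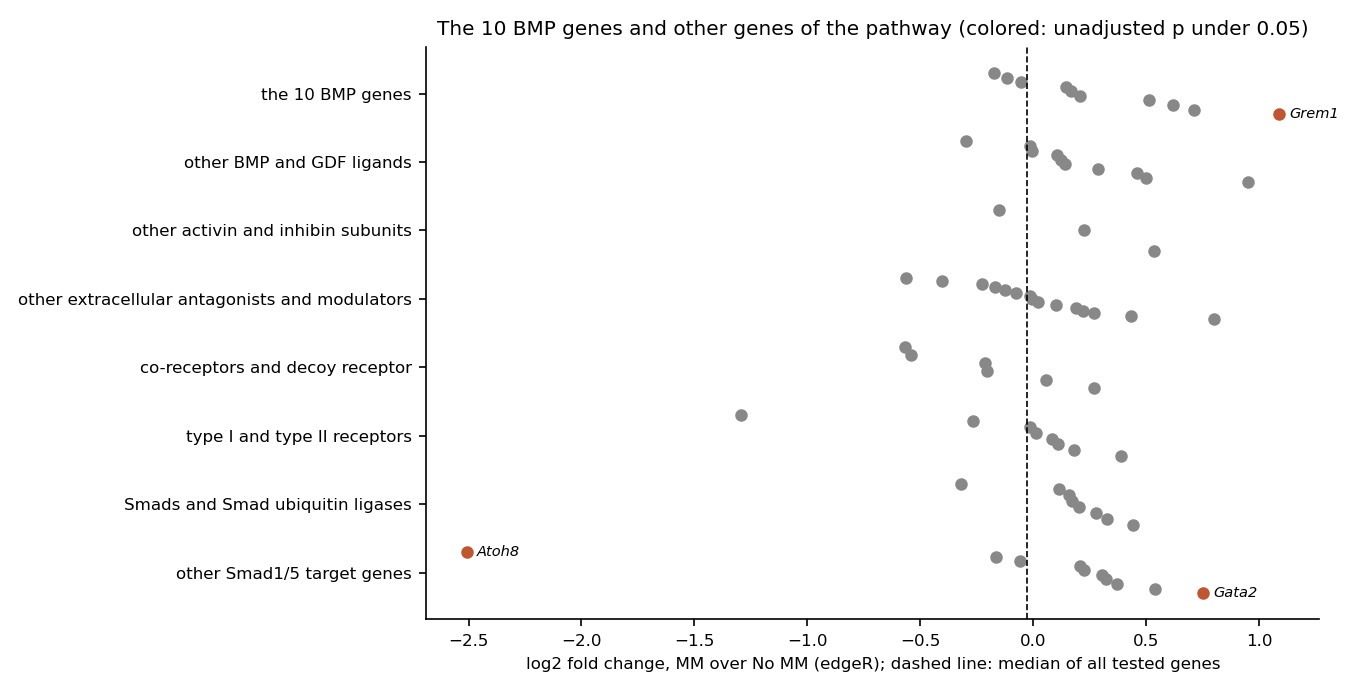
Log2 fold change, MM over No MM, of the 10 BMP genes and of 60 further genes of the pathway by role. Each point is 1 gene, the dashed line is the median of all tested genes (-0.03), and coloring marks an unadjusted p below 0.05. Grem1 (1.09), Gata2 (0.75) and Atoh8 (-2.51) are the colored points.

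The close relative Id3, which shares its BMP regulation with Id1, was 209.8, 199.6, 63.5, 33.5 and 198.0 CPM in No MM and 210.7, 134.5, 74.4, 96.3 and 112.2 CPM in MM. No MM 3 and No MM 4 were again the lowest, and apart from MM 6 the MM mice lay below the other 3 No MM mice. Without No MM 3 and No MM 4 its log2 fold change was -0.71 (unadjusted p = 0.0449, adjusted p = 0.643 by edgeR), and Id1 on the same libraries was at -0.39 (adjusted p = 0.650). This fit of Id3 was singled out after its value was seen.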

How the data were processed

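Osteocyte RNA of 5 No MM and 5 MM mice was sequenced as paired ends of 76 bp with the TruSeq Stranded Total RNA kit. The authors deposited 1 table of 22548 genes with whole-number read counts, which were used here. The deposited signal (the counts over 1 size factor per library) and the deposited FPKM values were not analyzed. The deposited log2 fold changes and p-values are the authors' own comparison and were not used. The submitters' processing notes name FastQC 0.11.5 and STAR. The counting program, its strand setting, the genome build and the annotation are not given in the sources used here. GENCODE M21 holds 22284 of the identifiers, 15234 of them at the same coordinates, as are 7 of the 10 BMP genes, strand included.

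Groups and mouse numbers came from the labels. P-values of MM against No MM set the difference of the groups against the spread between mice. The sign-flip test compared genes within libraries, and the correlation tests pooled the mice of both groups. In R 4.3.3, genes were filtered by filterByExpr of edgeR 4.0.16, scaled by TMM and tested by the quasi-likelihood test with the group as the only term, and Benjamini-Hochberg adjustment covered 16186 genes. Log2 CPM used a prior count of 2. RPKM was CPM per kilobase of the table's gene length. Counts without molecular identifiers are not independent molecules, so the limit of 3 reads covers counting error only. The test was first checked on simulated counts. Correlations used 100000 permutations.

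Alternatives were DESeq2 1.42.0, other size factors (RLE and upper quartile), other filters on low counts (none beyond 1 read in all, or 10 reads in every library), immunoglobulin genes left out, 1 surrogate variable (sva 3.50.0), the marker score as a covariate, No MM 3 and No MM 4 left out together, and each mouse left out in turn. Ratios to osteoblast markers and of antagonists to ligands were added after seeing the data. The genes, the lists and the tests were chosen with earlier results of these data known. The genes named were all 10 BMP genes, the pathway genes with an unadjusted p below 0.05, the 2 most abundant per length of each sublist, and the 2 most similar genes to each of the 10, with immunoglobulin genes and unnamed gene models left out. Txndc5, Thpo and the later account of Id3 were chosen after values were seen.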

Additional observations from a re-analysis of the deposited data

Results flagged for a closer look

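In each group of 5 mice, a library was singled out where its gap to the nearest other one, divided by the range of the group, exceeded Dixon's 95% critical value of 0.71. The rule finds about 1 in 20 sets by chance. Of 24 sets tested here it found 2, against 1.2 expected by chance.

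Chrd in MM 6 was 5.07 CPM, while the other MM mice lay between 1.56 and 2.49 CPM, a gap of 0.736 of the range. Inhba in No MM 5 was 3.60 CPM, while the other No MM mice lay between 1.03 and 1.62 CPM, a gap of 0.772 of the range.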

How the results depend on the processing

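Over the 10 genes and 19 alternatives, 171 of 190 fold changes kept their direction and 19 turned, and none reached an adjusted p below 0.05. The turned estimates on the log2 scale were Bmp2 (-0.036 with 1 surrogate variable, -0.091 without No MM 3 and No MM 4), Bmp3 (-0.26 with 1 surrogate variable, -0.038 with the marker score, -0.41 without that pair), Bmp7 (-0.23 and -0.38) and Chrd (0.0019 with 1 surrogate variable). With each mouse left out, Bmp3 ranged from -0.19 to 0.47 (below 0 without No MM 3, No MM 4 or MM 6), Bmp6 from -0.27 to 0.14 (above 0 without No MM 2 or MM 8), Bmp7 from -0.046 to 0.56 (below 0 without No MM 3 or No MM 4) and Chrd from -0.41 to 0.090 (above 0 without No MM 3, No MM 5, MM 8 or MM 9). The cause was not tested.

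Against 0 genes by edgeR with adjustment, DESeq2 called 32 higher and 192 lower. An unadjusted p below 0.05 by edgeR gave 617 higher (3.81% of all tested genes) and 1664 lower (10.3%). Of the 60 tested genes of the pathway list, 1 was higher and 1 lower at an unadjusted p below 0.05. The number higher was 2 without the filter, 0 with 1 surrogate variable, 0 without No MM 3 and No MM 4, and 0 to 4 with each mouse left out. The number lower was 3 by DESeq2, 0 with 1 surrogate variable, 0 with the marker score, and 1 to 3 with each mouse left out. The study speaks of a paired analysis, but the labels match no No MM mouse with an MM mouse, so no paired analysis was made here.

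The biological coefficient of variation was 0.46, and the standard errors of Bmp4, Nog and Inhba (0.460, 0.648 and 0.429) were close to their estimates. Levels of Nog rest on as few as 15 reads.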
